A study of Rattus norvegicus with 30 samples.

Results

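The genes that build the proteasome were followed in whole stomach, jejunum and colon of rats after irinotecan, a chemotherapy drug that poisons topoisomerase I. They were chosen by symbol: a probe set (a group of short probes for one transcript) was taken where its annotation gave exactly 1 gene symbol that starts with Psm, then a letter from a to g and a digit. This gave 60 probe sets and 46 genes of the 14217 genes with such a probe set, and the brightest probe set over all 30 arrays stood for each of the 9 genes that had several. Of the 46 genes, 44 belong to the proteasome: 13 of the core (Psma1 to Psma7, Psmb1 to Psmb5 and Psmb7), 17 of the cap (Psmc1 to Psmc6 and 11 Psmd genes), the 3 immunoproteasome subunits Psmb8, Psmb9 and Psmb10, 4 activators or inhibitors (Psme1, Psme2, Psme4 and Psmf1), and 7 assembly chaperones (Psmd5, Psmd9, Psmd10 and Psmg1 to Psmg4). The other two, Psmc3ip and Psme3ip1, carry the name of a partner protein and were kept apart. Psmb6 and Psme3 were not among the matched probe sets and were not analysed here.

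The treated groups were female DA rats aged 10 weeks that had 1 intraperitoneal injection of irinotecan (200 mg/kg) under light halothane anaesthesia and were killed after 1, 6, 24 or 72 h. The 0 h rats had no irinotecan; a vehicle injection or anaesthetic for them is not described in the labels. Stomach, jejunum and colon of a given hour were taken from 1 set of 6 rats, and RNA of 3 rats was pooled for each array, which gave 2 arrays for each of the 15 groups. Every p-value therefore measures the spread between pools, and a pool hides the spread between its rats. Values are log2 signals, so a difference of 1 is a factor of 2, and "called" means a Benjamini-Hochberg adjusted p under 0.05 over all 31042 probe sets in a limma fit.

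The proteasome is the barrel-shaped protease that takes apart proteins marked with ubiquitin. Its core is a stack of rings: the alpha subunits (Psma genes) form the gate, and the beta subunits (Psmb genes) hold the cutting sites. The cap that sits on the core has a ring of ATPases (Psmc genes) that unfold the substrate and thread it in, and a lid and base of non-ATPase subunits (Psmd genes) that bind ubiquitin and remove it. In cells exposed to interferon and in many immune cells, Psmb8, Psmb9 and Psmb10 replace Psmb5, Psmb6 and Psmb7 in newly built cores, and the resulting immunoproteasome cuts peptides for display on MHC class I. Psme1 and Psme2 form an interferon-induced activator ring that can take the place of the cap.

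All 46 genes had a mean signal above the median probe set (7.03). Array medians were 6.97 to 7.06 and the 2 arrays of a group correlated at 0.947 to 0.996 over all probe sets. Tissue identity was checked on marker lists: the median of the gastric gland list was 12.78 to 13.51 on the stomach arrays, against 6.57 to 6.99 on the jejunum arrays and 6.37 to 9.28 on the colon arrays. The excess of the 3′ over the 5′ GAPDH control probe sets, a sign of RNA breakdown, was above 0.5 on 2 arrays, replicate 1 of the stomach at 24 h (0.56) and replicate 1 of the jejunum at 24 h (0.82). Markers of neighbouring tissue stood out on a few arrays: the pancreatic acinar median was 13.42 on replicate 1 of the stomach at 72 h, against 7.47 and 7.14 at 0 h, and 12.15 on replicate 2 of the colon at 72 h, against 6.81 and 6.15 at 0 h. It was 9.27 on replicate 1 of the colon at 6 h, and the gastric gene Pgc was at 13.67 on replicate 1 of the colon at 24 h. The enterocyte marker median was 10.31 on replicate 2 of the colon at 24 h, against 7.52 and 8.71 at 0 h. In bulk tissue, fewer cells of a type and less RNA per cell cannot be told apart.

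The widest differences among the 44 genes lay between the untreated tissues and were those of the immunoproteasome subunits. Psmb8, which carries the chymotrypsin-like site of the immunoproteasome, had signals of 7.09 and 7.30 in stomach, 11.06 and 10.92 in jejunum, and 8.72 and 9.29 in colon. Psmb9 had 7.62 and 7.95 in stomach, 11.73 and 11.45 in jejunum, and 9.97 and 10.64 in colon. Psmb10, which carries the trypsin-like site, had 8.25 and 8.61 in stomach, 10.81 and 10.80 in jejunum, and 9.94 and 10.19 in colon. For each of the 3 genes the order was stomach, colon, jejunum, and the arrays of the 3 tissues did not overlap, as held in that direction for 39.9% of all probe sets in stomach over jejunum, 29.9% in stomach over colon and 45.9% in jejunum over colon. Between stomach and jejunum the difference was 13.9-fold for Psmb8 (log2 -3.80, SE 0.27, adjusted p 2.05e-09), 14.0-fold for Psmb9 (-3.81, SE 0.29, adjusted p 5.07e-09) and 5.20-fold for Psmb10 (-2.38, SE 0.28, adjusted p 1.93e-06), each lower in stomach. Between stomach and colon all 3 were again lower in stomach, by 3.50-fold for Psmb8 (adjusted p 5.42e-05), 5.75-fold for Psmb9 (adjusted p 2.41e-06) and 3.12-fold for Psmb10 (adjusted p 0.000204). Jejunum exceeded colon by 3.96-fold for Psmb8 (adjusted p 1.55e-05), 2.43-fold for Psmb9 (adjusted p 0.00183) and 1.66-fold for Psmb10 (adjusted p 0.0402). The Psmb10 difference between jejunum and colon was not called when any 1 of the 4 arrays was left out, whereas the stomach differences of the 3 genes were called each time (the lone array of a group is then taken to vary like the other groups).

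The promoters of the immunoproteasome genes and of Psme2 are shown because these genes differ most between the tissues and are known interferon targets. Each line gives 250 bases before and 50 after the start of the gene, 5′ to 3′ on the strand of the gene, from RefSeq (build GRCr8). Capitals mark GAAANNGAAA, the repeat of the interferon response element, searched on both strands.
Psmb8 (chr20:4656982-4657281, minus strand): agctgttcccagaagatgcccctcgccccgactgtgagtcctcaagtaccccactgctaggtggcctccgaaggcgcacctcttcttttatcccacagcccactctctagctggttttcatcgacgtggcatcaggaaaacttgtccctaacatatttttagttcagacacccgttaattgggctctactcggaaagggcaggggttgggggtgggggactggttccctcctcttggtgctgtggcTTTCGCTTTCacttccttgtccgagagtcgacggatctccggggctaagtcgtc
Psmb9 (chr20:4668750-4669049, plus strand): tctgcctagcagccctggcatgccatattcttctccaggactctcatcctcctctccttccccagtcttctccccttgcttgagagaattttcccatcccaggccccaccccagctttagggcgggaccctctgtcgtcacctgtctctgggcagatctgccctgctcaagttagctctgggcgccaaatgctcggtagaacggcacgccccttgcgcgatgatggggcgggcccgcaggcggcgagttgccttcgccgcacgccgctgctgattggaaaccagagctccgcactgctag
Psmb10 (chr19:50743243-50743542, minus strand): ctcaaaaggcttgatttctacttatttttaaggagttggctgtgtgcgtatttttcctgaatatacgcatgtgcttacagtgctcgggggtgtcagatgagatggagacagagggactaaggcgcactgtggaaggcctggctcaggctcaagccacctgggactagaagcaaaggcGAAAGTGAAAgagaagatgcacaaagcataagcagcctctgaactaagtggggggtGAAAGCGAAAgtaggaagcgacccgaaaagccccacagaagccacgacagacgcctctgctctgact
Psme2 (chr15:33052702-33053001, minus strand): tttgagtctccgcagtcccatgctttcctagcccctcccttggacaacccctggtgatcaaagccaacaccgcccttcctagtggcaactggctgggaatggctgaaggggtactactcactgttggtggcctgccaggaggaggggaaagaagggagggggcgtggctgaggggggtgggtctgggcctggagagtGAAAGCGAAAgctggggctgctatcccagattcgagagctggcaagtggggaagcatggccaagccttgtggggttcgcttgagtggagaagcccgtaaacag
Psmb8 held 1 such repeat on the reverse strand, first base 4 before the start, Psmb10 held 2, first bases 73 and 17 before the start, and Psme2 held 1, first base 53 before the start. The Psmb9 window held none, which says only that these letters are not in this window. The repeat stood in 3.92% of the 33469 promoters in the table, in 2 of 12 core promoters (Psma4 and Psmb3) and in 1 of 14 cap promoters (Psmd7). CCAAT, the box bound by NF-Y, stood on either strand in 9 of 12 core promoters (75.0%) and in 5 of 14 cap promoters (35.7%), beside 37.5% of all promoters. TGACNNNGC, the core of the antioxidant response element through which Nrf1 acts, stood in 3 of 12 core promoters (Psma3, Psmb2 and Psmb5) and 2 of 14 cap promoters (Psmd1 and Psmd3), beside 12.1% of all promoters. Promoters of 40 of the 44 genes were in the table. These matches describe letters and no test was run on them.

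In the GRCr8 gene table Psmb8 and Psmb9 lie on chromosome 20 in the order Tap2, Psmb8, Tap1, Psmb9, RT1-DMb, within the class II region of the MHC, while Psmb10 lies on chromosome 19. Tap1 and Tap2, which form the peptide transporter that feeds MHC class I, followed the same tissue order. Tap2 had signals of 7.10 and 6.96 in untreated stomach, 9.00 and 9.03 in jejunum, and 8.05 and 8.52 in colon. Tap1 had 7.35 and 7.23 in stomach, 8.71 and 8.75 in jejunum, and 7.84 and 8.90 in colon, where 1 array reached the jejunal values. Over the means of the 15 groups, which share tissue and arrays, Psmb9 correlated with Psmb8 at 0.97, with Psmb10 at 0.98, with Psme2 at 0.98 and with Tap1 at 0.95. Tissue means were not removed here, so the gap between the tissues enters these values. Within jejunum at 24 h over 0 h, Tap2 (0.80, adjusted p 0.0670) and Tap1 (0.31, adjusted p 0.320) lay above 0 h. Psmb8 and Psmb9 lay below 0 h in that comparison. Of 13 MHC class I presentation genes, 7 were lower and 1 higher in untreated stomach than in jejunum (14.9% of all probe sets were lower and 17.3% higher), with log2 differences of -1.98 for Tap2, -1.44 for Tap1, -1.22 for Tapbp (tapasin) and -1.16 for B2m, the light chain of MHC class I. Of 20 interferon response genes 7 were lower and 2 higher in stomach, among them the transcription factors Irf8 (-2.75) and Irf1 (-1.60), lower. Marker lists of immune cells moved in the same direction in part: 3 of 10 T cell genes and 3 of 6 B cell genes were lower in stomach than in jejunum and none higher. Of 11 macrophage genes 2 were higher, a share near that of all probe sets. Between stomach and colon, 2 T cell genes were higher and 1 lower in stomach, and 0 B cell genes were called. In that pair 18% of all probe sets were higher and 15.1% lower. Jejunum exceeded colon in 7 T cell and 3 B cell genes, with none lower. Of the interferon genes, 2 were higher and 5 lower in jejunum than in colon (25.8% and 19.9% of all probe sets). The part of the cell makeup in the immunoproteasome difference was not tested.

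The activator genes came next in size. Psme2 had 9.62 and 9.81 in untreated stomach, 11.44 and 11.34 in jejunum, and 10.43 and 10.69 in colon, and all 3 tissue pairs were called. Its log2 difference was -1.68 for stomach over jejunum (SE 0.24, adjusted p 1.56e-05), -0.85 for stomach over colon (adjusted p 0.00973) and 0.83 for jejunum over colon (adjusted p 0.00835). Its partner Psme1 had 10.19 and 10.39 in stomach, 11.28 and 11.09 in jejunum, and 10.43 and 10.63 in colon, so that jejunum stood apart and stomach and colon lay close. Psme1 was lower in stomach than in jejunum by a log2 difference of -0.90 (SE 0.20, adjusted p 0.00180), a call that was lost with its second brightest probe set (adjusted p 0.371). Psmf1, which encodes a protein that binds the core and inhibits it in the test tube, was highest in jejunum (9.33 and 9.12) and close in stomach (8.29 and 8.30) and colon (8.32 and 8.50), with log2 differences of -0.93 for stomach over jejunum (adjusted p 7.57e-05) and 0.81 for jejunum over colon (adjusted p 0.000320). Psme4, the large activator linked to histone turnover, had another order, with 9.75 and 9.68 in stomach and 9.79 and 9.77 in jejunum, both below the 10.37 and 10.23 of colon. The log2 difference of Psme4 from colon was -0.59 for stomach (adjusted p 0.0112) and -0.52 for jejunum (adjusted p 0.0160).

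The ordinary core and cap genes differed far less between the untreated tissues. The gap between the highest and the lowest tissue mean had a median of 0.24 over the 13 core genes and 0.27 over the 17 cap genes, against 3.80 over the 3 immunoproteasome genes, 0.91 over the activators and inhibitor, 0.44 over the assembly chaperones and 0.40 over all probe sets. Between stomach and jejunum 12 of the 44 genes were called (32.2% of all probe sets were), 4 higher and 8 lower in stomach (17.3% and 14.9% of all probe sets). Between stomach and colon 8 were called (33.1% of all probe sets), 2 higher and 6 lower in stomach (18% and 15.1%), a split that became 8 higher and 5 lower after quantile normalization. Between jejunum and colon 13 were called (45.7% of all probe sets), 8 higher and 5 lower in jejunum (25.8% and 19.9%), which became 11 higher and 1 lower after quantile normalization. Among core genes Psma3, an alpha ring subunit, stood out with 9.45 and 9.38 in stomach, 8.57 and 8.56 in jejunum, and 8.98 and 9.00 in colon. Its tissues did not overlap, and stomach exceeded jejunum by 1.80-fold (log2 0.85, SE 0.12, adjusted p 1.22e-05) and colon by 1.34-fold (log2 0.42, SE 0.12, adjusted p 0.00936). Psmb5, which carries the chymotrypsin-like site of the ordinary core and is the subunit that Psmb8 replaces, had 11.43 and 11.42 in stomach, against 11.07 and 10.93 in jejunum and 10.86 and 11.01 in colon. Psmb5 was thus highest in the tissue with the lowest Psmb8 (log2 0.43, adjusted p 0.0318, for stomach over jejunum and 0.49, adjusted p 0.0153, for stomach over colon). The second brightest Psmb5 probe set gave -0.23 for stomach over jejunum and no call for stomach over colon (adjusted p 0.969), so neither difference held across probe sets. With 1 of the 4 arrays left out in turn, Psmb5 was called in 0 of 4 fits for stomach over jejunum and in 1 of 4 for stomach over colon. Psma4 was lower in stomach, by a log2 difference of -0.35 from jejunum (adjusted p 0.0401) and -0.33 from colon (adjusted p 0.0499). In the cap, Psmd7, a lid subunit, was higher in stomach than in jejunum by 0.40 (adjusted p 0.00428, but 0.323 with the second brightest probe set), the ATPase Psmc5 was lower by -0.43 (adjusted p 0.0183), and Psmd2, a ubiquitin-binding scaffold of the base, was lower in jejunum than in colon by -0.33 (adjusted p 0.0169). The chaperones split by tissue: Psmg3 was lowest in jejunum (8.02 and 8.12, against 8.49 and 8.40 in colon), Psmd5 was also lower in jejunum than in colon (log2 -0.49, adjusted p 0.00148), while Psmg4 and Psmd9 were higher in jejunum (0.60, adjusted p 0.0171, and 0.44, adjusted p 0.00409), where Psmd9 was not called with its second brightest probe set (adjusted p 0.501).

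**Figure D1:**
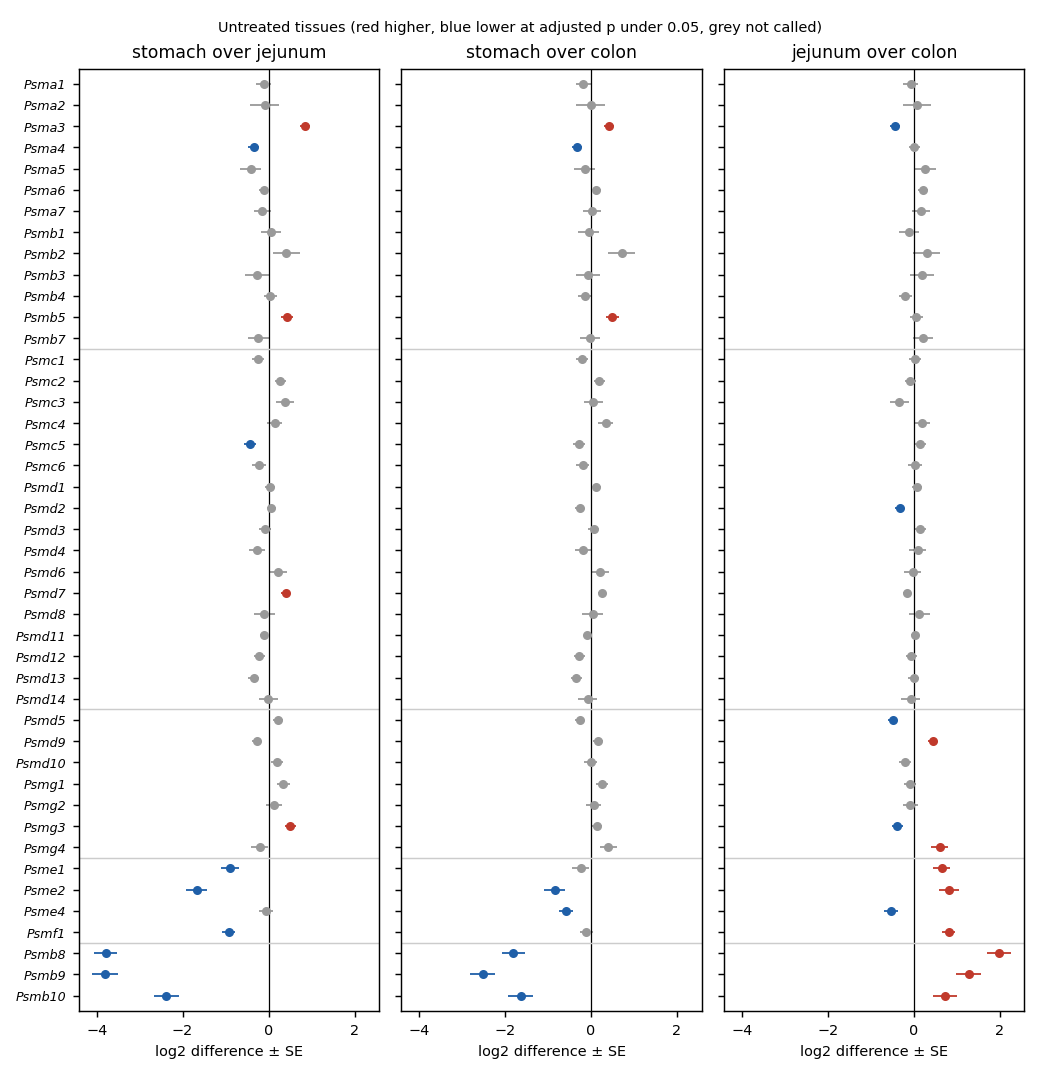
Log2 differences between untreated tissues for each of the 44 genes (horizontal axis, with SE bars, 2 arrays per tissue), in 3 panels for stomach over jejunum, stomach over colon and jejunum over colon, with called genes in red (higher) or blue (lower) and the rest in grey. Psmb8 and Psmb9 lie at -3.80 and -3.81 in the stomach over jejunum panel, far outside the core and cap genes.

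At 1 h after irinotecan no proteasome gene was called in any tissue. In stomach the share of all probe sets called was 0.0161%, and the limma p without adjustment was under 0.05 for 2 genes, both with a signal below 0 h (2.54% of all probe sets were), the lid subunit Psmd11 (log2 -0.33, adjusted p 0.778) and the ATPase Psmc1 (-0.34, adjusted p 0.871). In jejunum the share called was 0.0354% and 1 gene, below 0 h, had such an unadjusted p (1.9% of all probe sets). In colon the share called was 0% and the 1 such gene (6.7% of all probe sets, below 0 h) was Psmb10, with 9.42 and 9.39 at 1 h, against 9.94 and 10.19 at 0 h (log2 -0.66, SE 0.22, adjusted p 0.292). The Psmb10 arrays of the 2 colon groups did not overlap, and 22 of the 44 genes lay below 0 h without overlap, beside 24.7% of all probe sets. Psmb8 in colon differed by -0.53 (adjusted p 0.363), Psmb9 by -0.30 (adjusted p 0.589) and Psme4 by -0.23 (adjusted p 0.358). In stomach and jejunum the 3 immunoproteasome genes differed from 0 h by -0.17 to 0.06 at 1 h.

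At 6 h no proteasome gene was called in stomach (0.0322% of all probe sets), jejunum (3.49%) or colon (1.19%). In stomach, unadjusted limma p-values under 0.05 were those of Psmd7, with 10.31 and 10.35 at 6 h, against 9.98 and 10.03 at 0 h (log2 0.32, SE 0.09, adjusted p 0.300), and of Psma3 at -0.33 (adjusted p 0.437), beside 3.73% of all probe sets above and 5.1% below 0 h. In jejunum 2 genes above and 5 below 0 h had unadjusted p-values under 0.05, beside 10.4% and 9.56% of all probe sets. The smallest adjusted p was that of Psmg1, a chaperone of alpha ring assembly, at -0.31 (adjusted p 0.105), and 27 of the 44 genes lay below 0 h without overlap, beside 33.3% of all probe sets. The jejunal immunoproteasome genes had log2 differences from 0 h of -0.45 for Psmb9 (adjusted p 0.118), -0.47 for Psmb8 (adjusted p 0.183) and -0.38 for Psmb10 (adjusted p 0.417). In the same jejunal comparison the interferon-induced chemokines Cxcl11 and Cxcl10 rose, by 1.50 (adjusted p 0.00160) and 1.69 (adjusted p 0.0254). Of the 20 interferon response genes 4 were called higher and 0 lower. The list as a whole had a median of 0.004, with a range of -0.32 to 1.69. In colon 0 genes had an unadjusted limma p under 0.05 at 6 h, beside 14.1% of all probe sets, and the immunoproteasome differences were -0.43 for Psmb10, -0.47 for Psmb8 and -0.34 for Psmb9.

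At 24 h core genes were low on 1 array of each tissue. The mean signal of the 13 core genes in jejunum was 10.11 and 10.69 at 24 h, against 10.88 and 10.81 at 0 h. In colon it was 10.30 and 10.85 at 24 h, against 10.75 and 10.84 at 0 h, and in stomach 10.48 and 10.91 at 24 h, against 10.79 and 10.92 at 0 h. Replicate 1 was the low array each time, below both 0 h arrays. Replicate 2 lay between the 0 h arrays in stomach, just above them in colon and below them in jejunum. The median difference of replicate 1 from replicate 2 over the core genes was -0.69 in jejunum (11 of 13 below 0), -0.61 in colon (13 of 13) and -0.43 in stomach (12 of 13). Over all probe sets it was -0.02 in jejunum, 0.02 in colon and 0.01 in stomach. The drop was not particular to the core: the immunoproteasome median was -0.61 in jejunum, -0.92 in colon and -0.63 in stomach. For the cap it was -0.05, -0.44 and -0.22, and for the chaperones -0.09, -0.42 and -0.34, in the same order of tissues. Replicate 1 at 24 h was the lowest of the tissue's 10 arrays for 11 core genes in jejunum (it was so for 14.5% of all probe sets), for all 13 in colon (12.7%) and for 7 in stomach (14.5%). The low arrays of jejunum and stomach were the 2 with a GAPDH excess above 0.5, whereas the colon array had 0.35 beside 0.38 on its partner. The smooth muscle marker median over 9 genes was 12.90 and 11.98 in stomach at 24 h, against 11.97 and 12.53 at 0 h. It was 11.66 and 10.61 in jejunum at 24 h, against 10.12 and 10.29 at 0 h, and 12.78 and 12.41 in colon at 24 h, against 12.21 and 12.08 at 0 h. In all 3 tissues the low core array was the one with the higher muscle median of its pair. Same-numbered arrays of different tissues deviated together at 24 h (Pearson r over probe sets of 0.50 for stomach and jejunum, 0.32 for stomach and colon, and 0.36 for jejunum and colon). The labels do not say whether such arrays hold RNA from the same rats, so the 3 low arrays cannot be counted as separate observations. The low colon array was also the one with gastric signal, with Pgc at 13.67, against 6.96 on its partner. The part of RNA quality, of sampled muscle and of gastric signal in these low arrays was not tested.

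**Figure D2:**
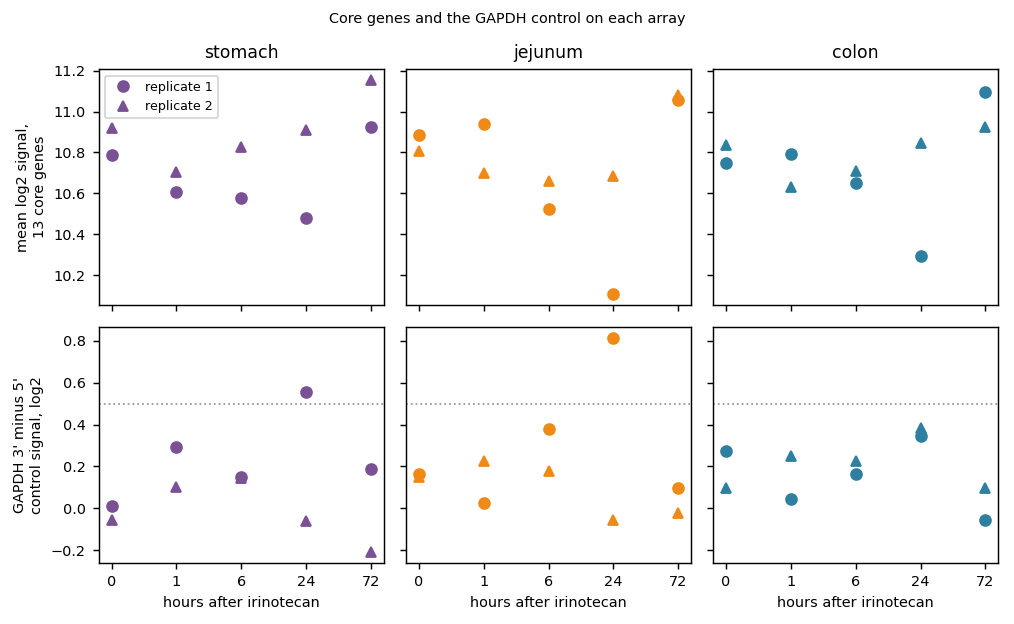
Mean log2 signal of the 13 core genes on each array and, beside it, the log2 excess of the 3′ over the 5′ GAPDH control by tissue and hour (hours evenly spaced, not to scale), with the dotted line at 0.5. Replicate 1 at 24 h is the lowest of its tissue in core mean (10.48 in stomach, 10.11 in jejunum, 10.30 in colon), and it passes the line in stomach and jejunum only.

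No proteasome gene was called at 24 h against 0 h in stomach (0.0161% of all probe sets), jejunum (0.409%) or colon (1.14%). In jejunum the unadjusted limma p was under 0.05 for 24 of the 44 genes, all below 0 h, beside 8.39% of all probe sets below 0 h. In 32 genes both 24 h arrays lay below both 0 h arrays, beside 23.5% of all probe sets. The median log2 difference was -0.52 for the core, -0.24 for the cap and -0.64 for the immunoproteasome, against -0.01 for all probe sets. Without replicate 1 at 24 h the core median was -0.14, and without replicate 2 it was -0.87 with 25 genes called lower, beside 7.1% of all probe sets in that same fit. The smallest adjusted p was that of Psmb9, with 10.84 and 11.22 at 24 h, against 11.73 and 11.45 at 0 h (log2 -0.56, SE 0.14, adjusted p 0.116). Psmb8 had 10.05 and 10.66 at 24 h, against 11.06 and 10.92 at 0 h (-0.64, SE 0.18, adjusted p 0.145). Both genes were below both 0 h arrays on both pools. The ATPase Psmc6 had 9.55 and 9.54 at 24 h, against 9.79 and 9.93 at 0 h (-0.32, SE 0.08, adjusted p 0.125), with close pools. The jejunal range over the 44 genes was from -0.85 for the alpha ring subunit Psma2 to 0.17 for Psmd2. In colon the core median was -0.24, but 0.10 without replicate 1 and -0.52 without replicate 2. The immunoproteasome median there was -0.35, but 0.11 without replicate 1 and -0.82 without replicate 2. Replicate 1 was the colon array with Pgc at 13.67, and replicate 2 the one with an enterocyte median of 10.31. The part of these tissue signals in the colon values was not tested. Unadjusted limma p-values under 0.05 were those of Psmd5 (-0.35, adjusted p 0.236) and Psma2 (-0.43, adjusted p 0.285) in colon (8.69% of all probe sets, below 0 h), and of Psma3 (-0.46, adjusted p 0.571), Psme4 (-0.54, adjusted p 0.576) and Psmd10 (-0.40, adjusted p 0.594) in stomach (4.16% of all probe sets, below 0 h). The immunoproteasome genes in stomach at 24 h differed from 0 h by -0.02 to 0.00.

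At 72 h proteasome genes rose in the jejunum, most of them subunits of the cap. Called higher than at 0 h were 11 of the 44 genes (11.9% of all probe sets were) and called lower 0 (12% of all probe sets). The unadjusted limma p was under 0.05 for 2 genes below 0 h, beside 22.6% of all probe sets. The 11 were 7 of 17 cap genes, 1 of 13 core genes and 3 of 7 assembly chaperones. The ATPase ring gave 4 of its 6 members: Psmc1, Psmc2, Psmc3 and Psmc5. Psmd2, the base scaffold, had 10.24 and 10.24 at 72 h, against 9.80 and 9.53 at 0 h, and rose by 0.57 (SE 0.10, adjusted p 0.00628). Psmc5 had 10.24 and 10.14 at 72 h, against 9.82 and 9.71 at 0 h, and rose by 0.43 (SE 0.08, adjusted p 0.00811). Psmc3 had 10.54 and 10.39 at 72 h, against 9.91 and 9.72 at 0 h, and rose by 0.65 (SE 0.18, adjusted p 0.0305), the largest of the called changes. In each of these the 2 groups were well apart.

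The other called cap genes were the ATPases Psmc1 (0.34, SE 0.10, adjusted p 0.0410) and Psmc2 (0.33, SE 0.08, adjusted p 0.0250) and the lid subunits Psmd7 (0.40, SE 0.10, adjusted p 0.0205) and Psmd12 (0.36, SE 0.08, adjusted p 0.0135). The chaperones that rose were Psmg1 (0.45, SE 0.09, adjusted p 0.0109) and Psmg3 (0.48, SE 0.12, adjusted p 0.0257), which help build the core, and Psmd5 (0.33, SE 0.08, adjusted p 0.0256), which helps build the base of the cap. Psmb4 was the called core gene, with 11.88 and 11.88 at 72 h, against 11.58 and 11.58 at 0 h (0.30, SE 0.10, adjusted p 0.0487). Psmd14, the lid enzyme that cuts ubiquitin chains off the substrate, had 10.82 and 10.68 at 72 h, against 10.31 and 10.22 at 0 h, and was not called. All 13 core and all 17 cap genes had both 72 h arrays above both 0 h arrays, and of the 44 genes 36 did, beside 29.7% of all probe sets. The median log2 difference was 0.33 for the cap, 0.21 for the core and 0.33 for the chaperones, against -0.07 for all probe sets. Quantile normalization shifted the proteasome genes by a median of -0.11 and the median of all probe sets by 0.04. Part of this gap therefore depends on the scaling. The call count was small without any 1 array: 0 genes without replicate 2 at 0 h and at most 3 without another, again with the lone array taken to vary like the rest. After quantile normalization 5 of the 44 genes were called, 4 higher and 1 lower. In that fit 5271 of all 31042 probe sets were called in either direction, a larger share than that of the proteasome genes. Psmc5 and Psmd2 were called in all 7 settings that kept every array.

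**Figure D3:**
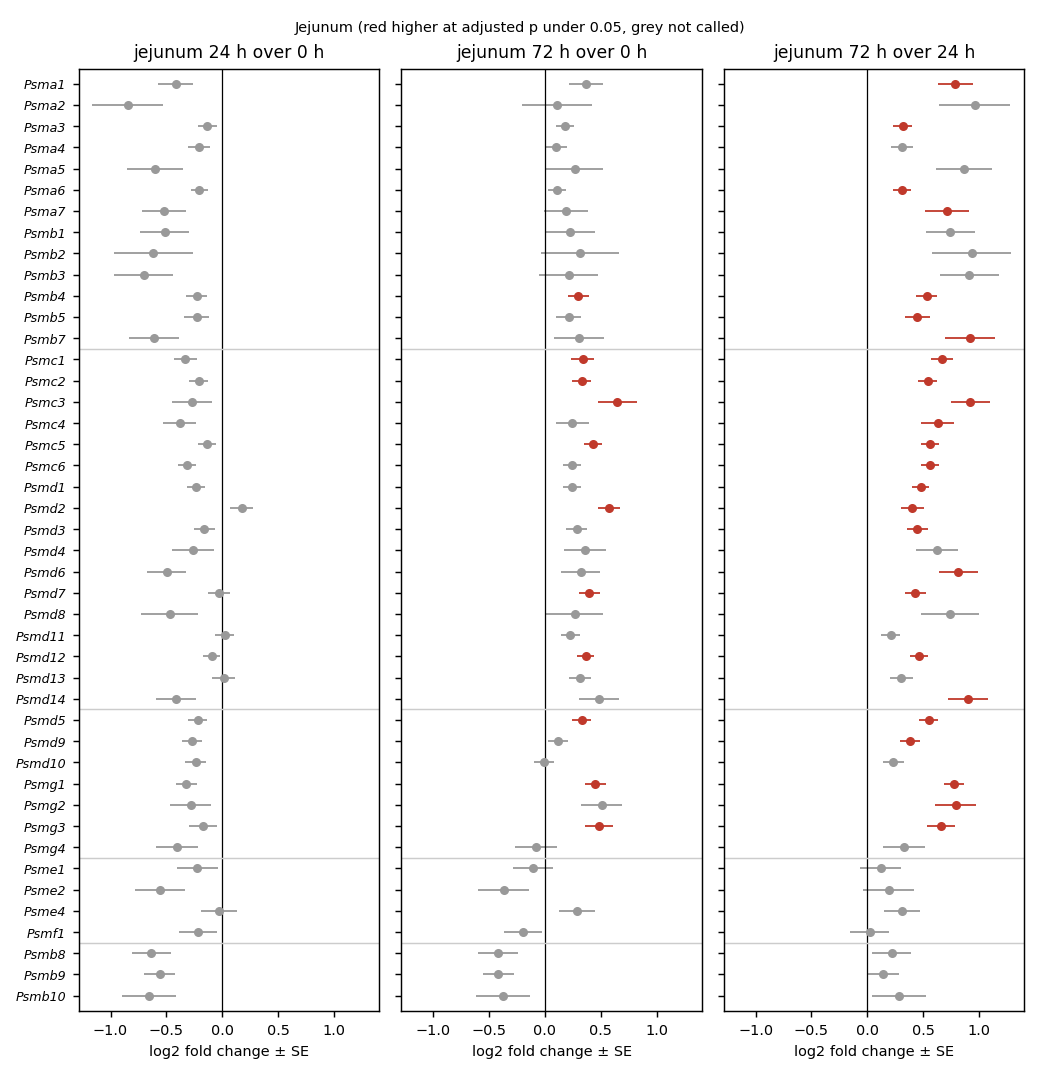
Log2 differences in jejunum for each of the 44 genes (horizontal axis, SE bars, 2 arrays per time) in 3 panels, 24 h over 0 h, 72 h over 0 h and 72 h over 24 h, with called genes in red and the rest in grey. The 72 h over 24 h panel has all 44 genes above 0 by their brightest probe set and 25 of them called, while the 24 h over 0 h panel has none called.

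Between 24 and 72 h the increase in jejunum took in the core as well. At 72 h 25 of the 44 genes were higher than at 24 h (8.77% of all probe sets were called higher) and 0 were lower (4.15%, and 0 at an unadjusted limma p under 0.05, beside 15.9%), and all 44 differences of the brightest probe sets were above 0. With the second brightest probe set of the 9 genes that have several, 41 were above 0: Psmc4 (-0.24), Psmd9 (-0.046) and Psme1 (-0.21) were not, and Psmc6 (adjusted p 0.293) and Psmb5 (adjusted p 0.798) lost their calls. The 25 were all 6 ATPases and 7 other cap genes, 4 of 7 alpha subunits, 3 of 6 beta subunits and 5 chaperones, and 36 of the 44 genes had both 72 h arrays above both 24 h arrays, beside 21.6% of all probe sets. Psmg1 had 9.44 and 9.44 at 72 h, against 8.57 and 8.75 at 24 h, and rose by 0.77 (SE 0.09, adjusted p 0.00202). Psmc1 had 10.01 and 10.03 at 72 h, against 9.22 and 9.49 at 24 h (0.67, SE 0.10, adjusted p 0.00453). Psmc6 had 10.08 and 10.12 at 72 h, against 9.55 and 9.54 at 24 h (0.56, SE 0.08, adjusted p 0.00397). These 3 genes, with Psmc5 (0.56, adjusted p 0.00367) and Psmd5 (0.55, adjusted p 0.00492), were called without any 1 of the 4 arrays, all by their brightest probe set.

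The largest called increases over 24 h were those of Psmb7, the ordinary trypsin-like subunit (0.92, SE 0.22, adjusted p 0.0283), Psmc3 (0.92, SE 0.18, adjusted p 0.0115), Psmd14 (0.90, SE 0.18, adjusted p 0.0129), Psmd6 (0.81, SE 0.17, adjusted p 0.0176), Psmg2 (0.79, SE 0.18, adjusted p 0.0237), Psma1 (0.79, SE 0.15, adjusted p 0.0123) and Psma7 (0.71, SE 0.20, adjusted p 0.0462). Psmb7 shows how far the low array enters: it had 10.76 and 10.69 at 72 h, against 9.40 and 10.22 at 24 h. Psma2 (0.96) and Psmb2 (0.93), the largest differences, were not called, and Psmb2 had 11.09 and 11.13 at 72 h, against 9.52 and 10.83 at 24 h. The core median was 0.74 and the cap median 0.56, against -0.06 for all probe sets. Quantile normalization shifted the proteasome genes by a median of -0.12 here and the median of all probe sets by 0.03. Without replicate 1 at 24 h, the array with a GAPDH excess of 0.82, the medians were 0.36 for the core and 0.51 for the cap. Without replicate 2 at 24 h the core median was 1.06. The count of called genes depended strongly on which array was left out, and so did the share of all probe sets called.

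**Figure D4:**
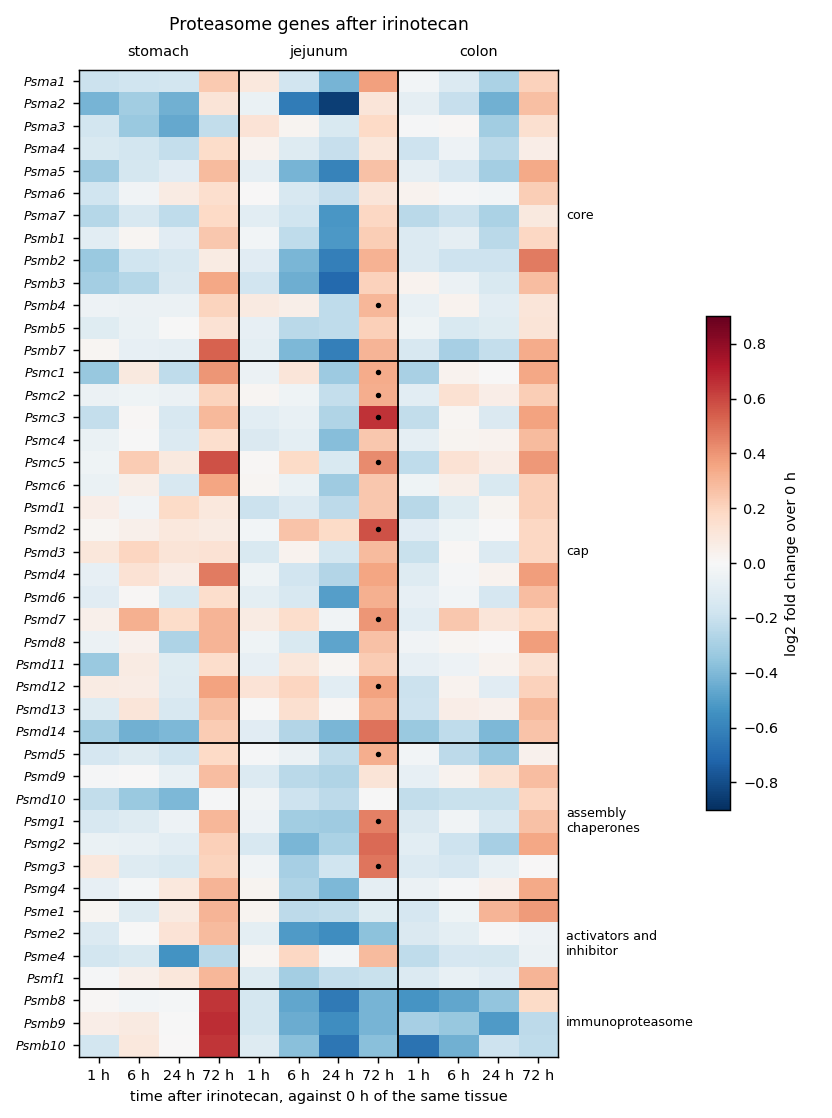
Log2 difference from 0 h (colour) for the 44 genes in rows by class and the 12 treated groups in columns by tissue and hour (1, 6, 24 and 72 h), with a dot where the gene was called. All 11 dots lie in the jejunum 72 h column, and the 72 h columns of the 3 tissues share mostly positive core and cap values.

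In colon most 72 h values lay above 0 h, but few were called. Against 0 h none was called (1.32% of all probe sets), the unadjusted limma p was under 0.05 for 6 genes, all above 0 h (8.44% of all probe sets), and 33 of 44 had both 72 h arrays above both 0 h arrays, beside 22.1% of all probe sets. The smallest adjusted p was that of Psmc5 (0.39, SE 0.14, adjusted p 0.194), followed by Psmd9 (0.28, adjusted p 0.221) and the ubiquitin receptor Psmd4 (0.37, adjusted p 0.241), and the medians were 0.21 for the core and 0.26 for the cap. Against 24 h 0 genes were called lower (2.33% of all probe sets, with 0 genes and 12.8% of all probe sets at an unadjusted limma p under 0.05) and 1 was called higher (4.4% of all probe sets), Psmg2, a chaperone that pairs with Psmg1, with 9.26 and 9.00 at 72 h, against 8.27 and 8.69 at 24 h (0.65, SE 0.17, adjusted p 0.0483). Psma2 (0.70, adjusted p 0.0522) and Psmd14 (0.66, adjusted p 0.0704) came next, and 20 genes above 24 h had an unadjusted limma p under 0.05, beside 13.6% of all probe sets. Without replicate 1 of the colon at 24 h 0 genes were called, and without replicate 2, 25 were, beside 7.89% of all probe sets called higher in that fit. The core median over 24 h was 0.43, and 0.12 to 0.73 without 1 array. Without the arrays with acinar or gastric signal it was 0.22, and 0 genes were called. Mitosis genes moved beside these values: 14 of 15 were called higher in colon at 72 h than at 24 h, and their median was 8.71 and 8.66 at 72 h, against 7.45 and 7.49 at 24 h. Their part in the proteasome values was not tested.

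In stomach no gene was called at 72 h against 0 h (0.00644% of all probe sets) or against 24 h (0.00322%). The unadjusted limma p against 0 h was under 0.05 for 9 genes, all above 0 h, beside 2.85% of all probe sets, and 31 genes had both 72 h arrays above both 0 h arrays, beside 13.5% of all probe sets. Psmc5 had 9.74 and 10.07 at 72 h, against 9.30 and 9.37 at 0 h (0.57, SE 0.15, adjusted p 0.656). Psmb7 had 10.61 and 10.83 at 72 h, against 10.02 and 10.35 at 0 h (0.53, SE 0.19, adjusted p 0.656). Neither gene's groups overlapped, and 41 of the 44 differences were above 0. The medians were 0.18 for the core, 0.27 for the cap and 0.65 for the immunoproteasome, and 0.29, 0.37 and 0.67 without replicate 1 at 72 h, the array with acinar signal. Without replicate 2 they were 0.09, 0.16 and 0.61. That array was the highest of the 10 stomach arrays for 11 of 13 core genes, and it also had the highest squamous marker median at 72 h: over 6 genes it was 8.11 and 11.63 at 72 h, against 7.17 and 9.73 at 0 h. None of the 6 squamous genes was called, and their part in the proteasome values was not tested. Against 24 h the unadjusted limma p was under 0.05 for 21 genes, all above 24 h (4.94% of all probe sets), led by Psmc1 (0.62, SE 0.15, adjusted p 0.308), Psmd12 (0.47) and Psmd5 (0.36). The immunoproteasome genes differed from 24 h by 0.64 (Psmb10) to 0.67 (Psmb8 and Psmb9).

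At 72 h the immunoproteasome genes were called in none of the 3 tissues, and the sign of their difference from 0 h was not the same in all. In jejunum Psmb8 had 10.57 and 10.58 at 72 h, against 11.06 and 10.92 at 0 h (log2 -0.42, SE 0.18, adjusted p 0.111). Psmb9 had 11.12 and 11.22 at 72 h, against 11.73 and 11.45 at 0 h (-0.42, SE 0.14, adjusted p 0.0556). Psmb10 had 10.27 and 10.58 at 72 h, against 10.81 and 10.80 at 0 h (-0.37, SE 0.24, adjusted p 0.271). For all 3 genes both 72 h arrays lay below both 0 h arrays, beside 43.8% of all probe sets. In stomach the differences had the other sign: Psmb8 had 7.99 and 7.69 at 72 h, against 7.09 and 7.30 at 0 h (0.65, SE 0.25, adjusted p 0.656). Psmb9 had 8.37 and 8.53 at 72 h, against 7.62 and 7.95 at 0 h (0.67, SE 0.31, adjusted p 0.662). Psmb10 had 9.04 and 9.10 at 72 h, against 8.25 and 8.61 at 0 h (0.64, SE 0.27, adjusted p 0.656). For all 3 both 72 h arrays lay above both 0 h arrays. In colon the differences at 72 h were 0.17 for Psmb8, -0.24 for Psmb9 and -0.23 for Psmb10. Over 24 h they were 0.14 to 0.28 in jejunum, and 0.53 for Psmb8, 0.27 for Psmb9 and -0.04 for Psmb10 in colon.

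Whether the response differed between the tissues was tested with an F test over the 3 tissues at each time. No proteasome gene was called at 1, 6, 24 or 72 h, beside 0.00322%, 0.251%, 0.229% and 2.28% of all probe sets. At 72 h the unadjusted p of this limma test was under 0.05 for 6 of the 44 genes, beside 19.6% of all probe sets, and the smallest adjusted p was that of Psmd2 (0.119). For stomach against jejunum at 72 h the response of Psmb8 was higher in stomach by 1.06 (SE 0.39, adjusted p 0.140), that of Psmb9 by 1.08 (SE 0.41, adjusted p 0.161) and that of Psmb10 by 1.01 (SE 0.40, adjusted p 0.173). None of these differences was called in this fit, while with the replicate number as a block Psmb10 was called in the F test at 72 h (adjusted p 0.049). The macrophage marker median over 11 genes was 8.40 and 9.18 in stomach at 72 h, against 7.65 and 8.01 at 0 h. It was 8.18 and 8.22 in jejunum at 72 h, against 7.20 and 7.31 at 0 h, and 9.10 and 9.15 in colon at 72 h, against 7.56 and 7.65 at 0 h. The list lay higher at 72 h in all 3 tissues, and its part in the proteasome values was not tested.

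**Figure D5:**
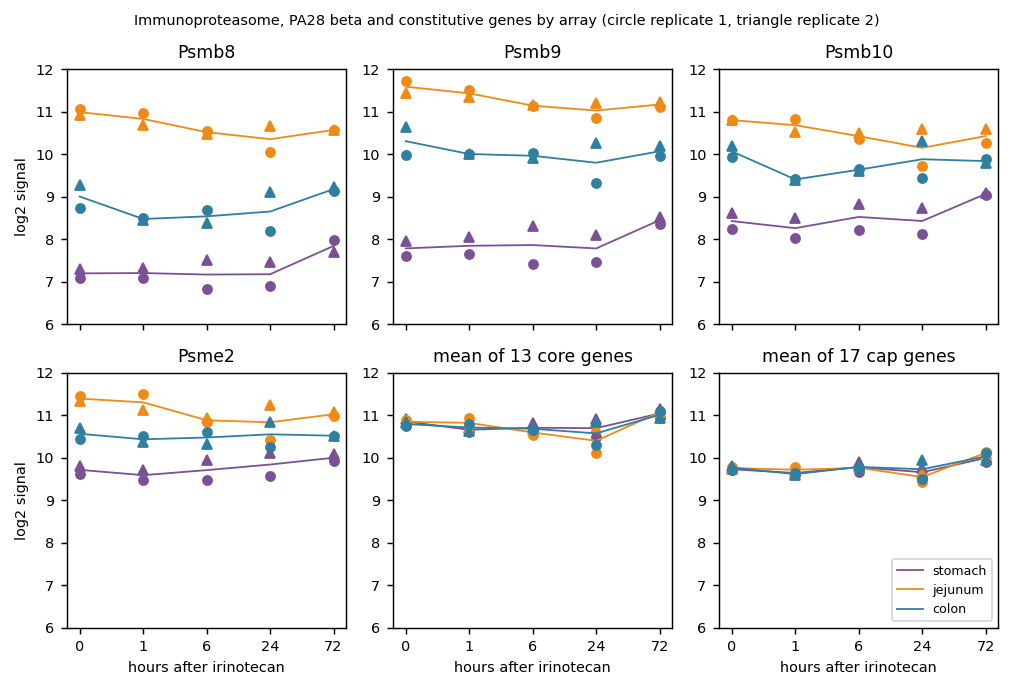
Log2 signal (vertical axis) of Psmb8, Psmb9, Psmb10 and Psme2 and the means of the 13 core and 17 cap genes on all 30 arrays by tissue and hour (evenly spaced, not to scale), with a circle for replicate 1 and a triangle for replicate 2. Psmb8 stays between 6.83 and 7.99 in stomach and between 10.05 and 11.06 in jejunum at all times, while the core mean lies between 10.11 and 11.15 on every array.

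Genes that work with the proteasome were read beside it, from lists of which the members do not match the symbol rule. In jejunum at 72 h against 0 h, 6 of 12 proteasome partners rose and none fell (11.9% of all probe sets were called higher and 12% lower), with a median of 0.39: among them Txnl1, a thioredoxin-like protein bound to the cap (0.81), Zfand5, a zinc finger protein that binds the proteasome (0.63), and Uchl5, a deubiquitinase of the cap (0.51). Of 11 genes of Vcp and the ubiquitin shuttles 4 rose, the unfoldase Vcp itself (0.54), its cofactor Nploc4 (0.58) and the shuttles Ubqln2 (0.71) and Rad23b (0.34). Of 11 ubiquitin and conjugation genes 1 rose, the activating enzyme Uba1 (0.35). Of 14 factors and targets of Nrf1 and Nrf2, the transcription factors known to drive proteasome and antioxidant genes, 2 rose, Nqo1 (1.53) and Srxn1 (0.65), so that the conjugation and the Nrf1 and Nrf2 lists had shares near or below that of all probe sets. Of 13 MHC class I genes none rose and Nlrc5, the transactivator of that pathway, fell by 0.26 on the log2 scale. Nlrc5 was dim, with means of 5.95 at 72 h and 6.21 at 0 h, below the median probe set (7.03). Of 20 interferon response genes 4 rose, including Gbp2 (0.87) and Cxcl9 (0.63), and 1 fell. Mitosis genes rose in 13 of 15 cases (median 0.63), macrophage markers in 4 of 11 (median 1.07) and smooth muscle markers in 3 of 9 (median 0.69), and the part of these cell changes in the proteasome values was not tested. Over 24 h the partners that rose in jejunum included Sem1, a small subunit of the lid (0.80), and Pomp, the maturation factor of the core (0.65), while Tap1 fell by 0.49.

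The core genes moved together over the time course. With each tissue's mean removed, the median Pearson correlation over the 15 group means was 0.90 between core genes (78 pairs), 0.79 between cap genes (136 pairs), 0.73 between core and cap genes (221 pairs), 0.86 among the 3 immunoproteasome genes and 0.59 between core and immunoproteasome genes (39 pairs). These pairs share arrays, and the 24 h means include the replicate 1 arrays on which most core genes lay below replicate 2. The same correlation was not computed over all probe sets, so the values are given as a description only. The gap between the highest and the lowest of the 15 group means takes in the tissues as well as the times. It had a median of 0.82 over the core, 0.70 over the cap and 3.81 over the immunoproteasome, against 0.62 over all probe sets. Between the untreated tissues alone the immunoproteasome median was already 3.80. Over the times of 1 tissue, the gaps of the 3 immunoproteasome genes were only 0.51 (Psmb9 in colon) to 0.81 (Psmb10 in stomach). The highest array of a tissue was a 72 h array for 11 of 13 core genes in stomach, 12 in jejunum and 11 in colon, beside 19.8%, 22.8% and 23.8% of all probe sets. In stomach it was replicate 2 and in colon replicate 1 each time, while the jejunal genes split into 7 on replicate 2 and 5 on replicate 1.

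Probe sets of one gene did not always move alike. For jejunum at 72 h over 0 h the second probe set of the ATPase Psmc4 gave -0.34 (adjusted p 0.0154), against 0.25 for the brightest. The other probe sets of Psmd11 gave 0.42 (adjusted p 0.0193) and -0.35 (adjusted p 0.0249), against 0.23. A second probe set of Psmd7 gave 0.57 (adjusted p 0.0211), the same sign as the brightest, and for Psmd14 all 3 probe sets were called higher at 72 h than at 24 h (0.90, 1.19 and 0.67). Of the 2 genes kept apart, Psme3ip1 was lower in untreated stomach than in jejunum (-0.30, adjusted p 0.0139) and than in colon (-0.45, adjusted p 0.000749), and neither it nor Psmc3ip, a partner in meiotic recombination, was called in a comparison of times.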

How the data were processed

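The values analysed are log2 signals deposited by the authors, made with RMA according to the submitters' processing notes. The sources used here name no RMA version and do not say if all 30 arrays were normalized jointly. The 57 array controls among 31099 probe sets were dropped, and no further scaling was applied. With R 4.3.3 and limma 3.58.1 (lmFit, eBayes, two-sided), times were compared in 1 fit of a tissue's 10 arrays, and untreated tissues and tissue differences in 1 fit of all 30. Adjusted p-values are Benjamini-Hochberg over 31042 probe sets, called under 0.05. The steps were tested on simulated data. Members and gene lists were chosen with earlier results of these data known. The genes named in each comparison were the 8 largest called changes whose groups did not overlap (or the 3 smallest adjusted p-values where none was called, and 5 for tissue comparisons), the immunoproteasome genes always, the highest and lowest of a class, and others where their class is described. For other lists, at most 4 called genes were named. Array number limits the precision. Alternatives were trended and robust moderation, quantile normalization, a filter on dim probe sets, 1 fit of all arrays, the replicate block, array weights, other probe sets, and leaving arrays out.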

Additional observations from a re-analysis of the deposited data

How the results depend on the processing

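The counts of called proteasome genes moved when single arrays were left out and with other settings. The number called over all probe sets moved as well. A count below that stands without the number over all probe sets is therefore not a result about the proteasome genes alone. Leaving out each array in turn gave 0 to 25 genes in jejunum at 24 h over 0 h, 0 to 3 at 72 h over 0 h, 5 to 36 at 72 h over 24 h, 0 to 1 in colon at 24 h over 0 h, 0 to 25 at 72 h over 24 h, and 8 to 10, 4 to 6 and 7 to 10 between untreated stomach and jejunum, stomach and colon, and jejunum and colon. Array weights gave 5 of the 44 genes in jejunum at 6 h, beside 4984 of all 31042 probe sets, a larger share. They gave 22 genes in jejunum at 72 h over 0 h, beside 11792 of all probe sets, a smaller share. They gave 14 genes in jejunum at 72 h over 24 h and 0 in colon at 72 h over 24 h. Between untreated tissues they gave 19 genes for stomach and jejunum and 16 for stomach and colon. Quantile normalization gave 5 of the 44 genes in jejunum at 72 h over 0 h, beside 5271 of all probe sets, a larger share. It gave 13 genes between untreated stomach and colon, and 0 in colon at 72 h over 24 h. It moved the median of all probe sets by at most 0.05, but that of the proteasome genes by -0.17 (stomach at 72 h over 24 h) to 0.16 (untreated stomach over colon). For colon at 72 h over 24 h the count was 2 with trended and robust moderation, 2 without dim probe sets, 3 in 1 fit of all 30 arrays, 3 with the second brightest probe sets, and 0 without the arrays with acinar or Pgc signal. The second brightest probe set reversed Psmc4 (-0.24) and Psmd9 (-0.046) in jejunum at 72 h over 24 h and Psmb5 (-0.23) between untreated stomach and jejunum. Whether same-numbered arrays share rats is not given: their deviations correlated above 0.1 in 5 of 15 pairs across tissues, among them all 3 at 24 h, and 5 of 12 within a tissue. With the replicate block, 8 of the 44 genes were called in jejunum at 72 h over 0 h. Of all probe sets 5773 were called there, a similar share. The block gave 21 genes in jejunum at 72 h over 24 h and 0 in colon at 72 h over 24 h. Between untreated tissues it gave 15 for stomach and jejunum, 10 for stomach and colon, and 14 for jejunum and colon. In the F test of the tissue difference at 72 h it gave 1 (Psmb10, adjusted p 0.049). The causes were not tested.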

Other observations

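Single genes of the ubiquitin system were called in comparisons with 0 or 1 called proteasome genes. At 6 h Faf1, a cofactor of Vcp that binds ubiquitin, fell by 0.60 on the log2 scale in jejunum (SE 0.12, adjusted p 0.0290) and by 1.08 in colon (SE 0.14, adjusted p 0.00493), and the shuttle Ubqln1 rose by 0.45 in jejunum (SE 0.09, adjusted p 0.0258). Uchl5, a deubiquitinase of the cap, fell by 0.48 in jejunum at 6 h (SE 0.10, adjusted p 0.0425) and was higher at 72 h than at 24 h in colon by 0.74 (SE 0.12, adjusted p 0.0109). Maff and Mafk, small partners of Nrf1 and Nrf2, rose in jejunum at 6 h by 0.58 (adjusted p 0.0280) and 0.41 (adjusted p 0.0341), and Maff rose in colon by 0.58 (adjusted p 0.0447). In colon at 72 h Zfand2a, a stress-induced partner of the proteasome, rose by 0.59 over 0 h (SE 0.12, adjusted p 0.0406). It also lay above 0 h by 0.53 at 1 h, 0.52 at 6 h and 0.65 at 24 h, and was called at 24 h (adjusted p 0.0304). Gclc, a glutathione synthesis enzyme and Nrf2 target, fell by 0.97 in colon at 72 h over 0 h (SE 0.17, adjusted p 0.0292). At 24 h over 0 h in colon, 3 of the 14 Nrf1 and Nrf2 genes were called higher and 0 lower. These were Maff (0.71), Srxn1 (0.64) and Nfe2l2, which encodes Nrf2 (0.63). Nfe2l1, which encodes Nrf1, was lower in colon at 72 h than at 24 h by a log2 difference of -0.67 (SE 0.12, adjusted p 0.0128).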
